A study of Mus musculus with 8 samples.

Results

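The Notch pathway and the proneural basic helix-loop-helix (bHLH) factors were followed through retinoic acid (RA)-induced differentiation of mouse embryonic stem cells (ESC) with and without a functional Htt gene. The 33 genes were chosen by name as receptors, ligands, Hes and Hey repressors, fringes, pathway regulators, proneural bHLH factors and the zinc finger factor Insm1, and all 33 were found among the 32567 genes of the RNA-seq table. Poly-A-plus RNA of 4 conditions was sequenced, with 1 library per condition: ESC and EB-derived, RA-treated cells (RA-DIFF), each from a wild-type parental line and from a huntingtin-null line homozygous for the Hdh ex4/5 allele. No other allele or agent was named in the labels, feeder cells were left out for 4 passages of the ESC before embryoid bodies (EBs) were formed, and the RA-DIFF cells were collected shortly after the EBs were dissociated and plated. Each genotype was represented by a single line, so that a difference between genotypes is also a difference between lines, and with 1 library per condition no difference below has a replicate check or a test that takes in the spread between replicates.

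Notch receptors are activated by Delta-like and Jagged ligands on a neighbouring cell, and the released intracellular domain joins the DNA-binding protein RBPJ to turn on Hes and Hey genes. Hes and Hey proteins repress proneural genes such as the neurogenins, while neurogenins in turn activate Delta-like ligands, so that in neural tissue cells that become neurons hold their neighbours in the progenitor state. The same pathway is used in the segmentation of the presomitic mesoderm and in blood vessels.

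Levels are given as CPM, the usual counts-per-million unit, after scaling by the TMM method, and as CPM per kilobase of exon (RPKM) where genes are compared with each other. Library totals lay between 63617410 and 110569127 counts, and a count of 0 allowed up to 3 counts, or between 0.0268 and 0.0460 CPM. Intervals are exact 95% intervals that take in counting error alone and not the spread between cultures or libraries. PCR copies of a molecule are read as separate, which can make the intervals too narrow for counting error as well. A gene was counted as higher or lower when its log2 ratio was beyond 0.75 in size and its average log2 CPM, taken across all 4 libraries, exceeded 0. Of the 33 genes 28 met the second condition, and Hes7, Neurog3, Neurod2, Atoh1 and Ptf1a did not. Genes on the opposite strand overlap exons of Notch1, Notch3, Dll1, Dll4, Hes5, Hes7, Numb, Neurog3, Neurod1 and Ptf1a, and genes on the same strand exons of Notch2, Numbl and Neurod1, so the reads of these members are uncertain to that extent. The gene over Dll1, A930024N18Rik, had 202 and 77 reads in the RA-DIFF libraries labelled wild-type and Htt-null, where Dll1 had 14615 and 8101. A gene expressed in a single condition meets that limit through the condition in which it is high.

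Reads on Htt were examined first. The Htt level was 166 CPM in wild-type ESC and 111 CPM in Htt-null ESC, but 73.3 CPM in the wild-type-labelled RA-DIFF library and 98.7 CPM in the one labelled Htt-null. Htt therefore goes against its label in RA-DIFF, and counts per gene do not tell which exons or allele the reads came from. The RA-DIFF libraries are named by their labels throughout, and every ratio between them keeps its size and takes the opposite sign if the labels are exchanged. Pluripotency markers summed to between 4298 and 5021 CPM in ESC and to between 13.2 and 54.2 CPM in RA-DIFF. Neural progenitor markers summed to between 549 and 619 CPM in ESC and between 2720 and 2729 CPM in RA-DIFF. In ESC the highest single progenitor marker made up most of that sum, at 578 CPM in wild-type and 495 CPM in Htt-null cells. In each line, RA-DIFF had higher levels than ESC for 5 of the 6 progenitor markers and a lower level for 1. Between the RA-DIFF libraries, 8 neuron markers summed to 2707 CPM in the one labelled wild-type and to 1216 CPM in the one labelled Htt-null, with 8 of 8 lower in the latter, 7 of them beyond the fold limit, while 8 fibroblast and mesenchyme markers summed to 570 and 2328 CPM, with 8 of 8 higher. In bulk RNA, fewer cells of a type and less RNA per cell cannot be told apart, and the part of this difference in cell type markers in the ratios below was not tested.

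**Figure D1:**
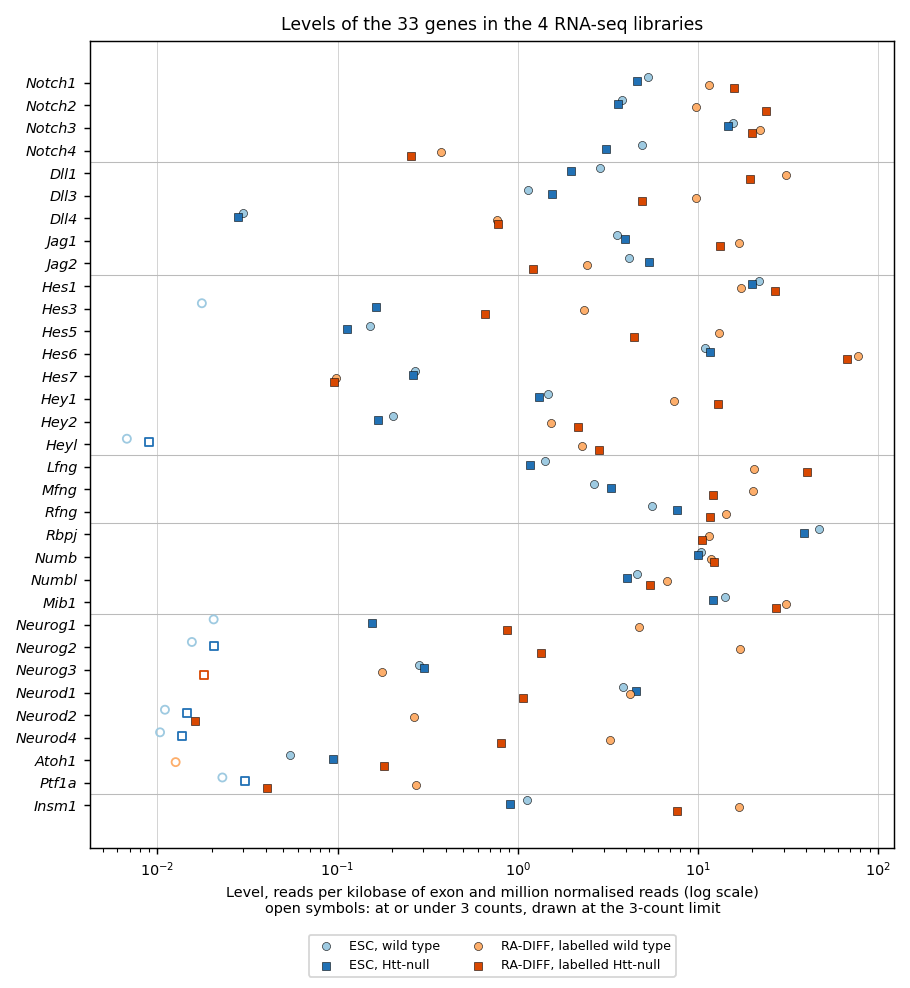
Level of each of the 33 genes in the 4 libraries, in RPKM on a log scale, with open symbols at the 3-count limit for libraries at or under 3 counts. Most genes lie further right in RA-DIFF than in ESC, Notch4, Jag2 and Rbpj lie further left, and Neurog1, Neurog2 and Neurod4 lie well apart between the RA-DIFF libraries.

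RA-differentiation was accompanied by higher levels of most pathway genes in both lines. In wild-type-labelled cells 20 of the 28 genes over the limit were higher in RA-DIFF than in ESC and 3 were lower, where 34.0% of all 15492 genes over the limit were higher and 26.2% lower, 60.1% in either direction. In Htt-null-labelled cells 19 were higher and 4 lower, against 34.4% and 24.9% of all genes, 59.2% in either direction. The median log2 ratio over the 33 genes was 2.31 in wild-type-labelled cells and 1.88 in Htt-null-labelled cells, where the median over all genes above the limit was 0.12 and 0.17. With the RA-DIFF labels exchanged, 20 genes were higher and 4 lower against wild-type ESC, and 20 higher and 3 lower against Htt-null ESC.

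Receptors differed among themselves in this response. Notch1 was at 75.1 CPM in wild-type ESC and 65.4 CPM in Htt-null ESC, and at 165 and 227 CPM in the RA-DIFF libraries labelled wild-type and Htt-null. Notch2, on chr3:98013527-98150361 of GRCm38, was at 40.9 and 39.0 CPM in ESC and at 106 and 257 CPM in RA-DIFF in the same order. Both were higher in RA-DIFF in each line, Notch2 by a log2 ratio of 1.37 in wild-type-labelled cells and 2.72 in Htt-null-labelled cells. Notch3, with 127 and 119 CPM in ESC and 180 and 162 CPM in RA-DIFF, stayed inside the fold limit at log2 ratios of 0.49 and 0.45. Notch4, a receptor best known from endothelium, went the other way: it was at 39.4 and 25.03 CPM in ESC and at 3.03 and 2.05 CPM in RA-DIFF, a log2 ratio of -3.70 in wild-type-labelled cells and -3.61 in Htt-null-labelled cells. Of 8 endothelium markers 5 were lower in RA-DIFF and 3 higher in each line. Their sums were 248 and 269 CPM in ESC and 28.7 and 93.9 CPM in RA-DIFF. Most of each sum came from a single marker, at 180 and 212 CPM in ESC and 17.9 and 71.7 CPM in RA-DIFF. The part of these markers in the Notch4 level was not tested.

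Per exon length, Notch3 was the most abundant receptor in both ESC libraries and in the wild-type-labelled RA-DIFF library. It made up 53.1% of the summed RPKM of the 4 receptors in wild-type ESC, 56.6% in Htt-null ESC and 50.5% in the wild-type-labelled RA-DIFF library. In the Htt-null-labelled RA-DIFF library it made up 33.4%, and Notch2 led with 39.7% against 22.3% in the wild-type-labelled library. Notch4 accounted for 16.4% and 11.9% in ESC and for 0.853% and 0.423% in RA-DIFF.

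**Figure D2:**
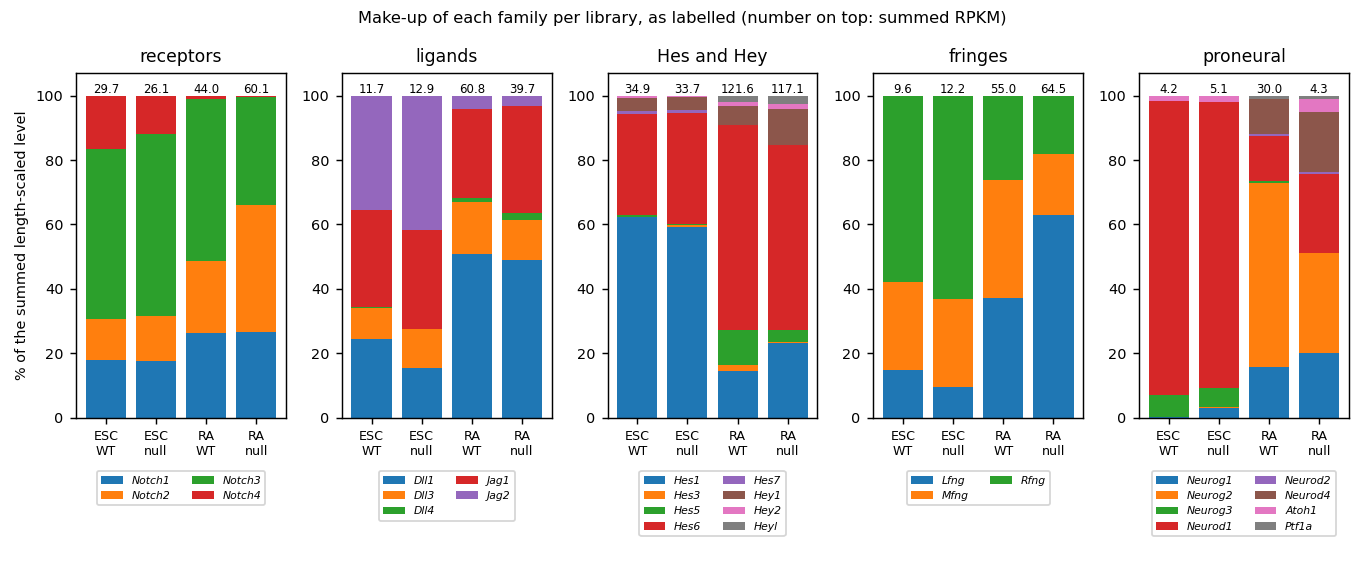
Share of each member in the summed RPKM of its family (stacked bars, percent), for receptors, ligands, Hes and Hey genes, fringes and proneural genes in the 4 libraries as labelled, with the summed RPKM above each bar. The Htt-null-labelled RA-DIFF library has a larger Notch2 and Lfng share than the one labelled wild-type, and its proneural sum is 4.34 RPKM against 30.0 RPKM.

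Among the ligands, Dll1, which neurogenins activate and which marks newly forming neurons, was at 12.1 CPM in wild-type ESC, 8.34 CPM in Htt-null ESC, 130 CPM in the wild-type-labelled RA-DIFF library and 82.3 CPM in the one labelled Htt-null. Dll3, which acts inside the cell and does not activate receptors of neighbours, was at 3.24 and 4.42 CPM in ESC and at 28.0 and 14.02 CPM in RA-DIFF. Jag1 was at 20.6 and 23.0 CPM in ESC and at 98.2 and 77.4 CPM in RA-DIFF. These ligands were higher in RA-DIFF than in ESC in each line, with log2 ratios between 1.67 for Dll3 in Htt-null-labelled cells and 3.43 for Dll1 in wild-type-labelled cells. Dll4, a ligand of arterial endothelium and of some spinal interneuron progenitors, had 10 and 7 reads in ESC and 330 and 296 reads in RA-DIFF, a log2 ratio of 4.67 (3.78 to 5.75) in wild-type-labelled cells and 4.81 (3.75 to 6.14) in Htt-null-labelled cells. Jag2 was the single ligand that was lower in RA-DIFF: it was at 29.0 and 37.4 CPM in ESC and at 16.9 and 8.51 CPM in RA-DIFF, with log2 ratios of -0.77 (-0.86 to -0.69) and -2.14 (-2.25 to -2.02). In wild-type-labelled cells that is just beyond the fold limit, and that limit was not reached with library size alone (-0.73), nor was Jag2 called by the exact test at a dispersion of 0.1. Jag2 made up the largest ligand share per length in ESC, 35.4% and 41.8%, and Dll1 the largest in RA-DIFF, 50.9% and 49.1%.

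The Hes and Hey genes, which encode the repressors that answer the receptors, differed in their response. Hes1, the general Notch target, was at 44.4 CPM in wild-type ESC, 40.7 CPM in Htt-null ESC, 35.5 CPM in the wild-type-labelled RA-DIFF library and 54.9 CPM in the one labelled Htt-null, and its response stayed inside the fold limit at log2 ratios of -0.32 and 0.43, or of 0.31 and -0.20 with the RA-DIFF labels exchanged. Hes5, the Notch target of neural progenitors, had 18 reads in wild-type ESC, 10 in Htt-null ESC, 2014 in the wild-type-labelled RA-DIFF library and 594 in the one labelled Htt-null. Its log2 ratio of RA-DIFF over ESC was 6.44 (5.77 to 7.19) in wild-type-labelled cells and 5.30 (4.41 to 6.37) in Htt-null-labelled cells. Hes6, which counteracts Hes1 and favours neuronal differentiation, was the most abundant of the family per length in RA-DIFF, with 77.4 and 67.0 RPKM, and was at 11.0 and 11.7 RPKM in ESC, where Hes1 led with 62.4% and 59.3% of the summed Hes and Hey RPKM. Hes3, a repressor of early neuroepithelium, had 1 read in wild-type ESC, 21 in Htt-null ESC, 514 in the wild-type-labelled RA-DIFF library and 127 in the one labelled Htt-null. Hes7, the repressor of the segmentation clock, was under the expression limit with between 17 and 42 reads in a library. Its log2 ratios of RA-DIFF over ESC were -1.44 (-2.29 to -0.64) and -1.46 (-2.41 to -0.56). The 8 presomitic mesoderm markers summed to 41.7 and 35.1 CPM in ESC and to 4.11 and 17.1 CPM in RA-DIFF. The highest marker of each library alone was at 38.4 and 30.7 CPM in ESC and at 1.22 and 11.9 CPM in RA-DIFF. Of 7 markers with more than 3 reads in either library, 3 were higher and 4 lower in RA-DIFF in wild-type-labelled cells. In Htt-null-labelled cells 2 were higher and 5 lower. Msgn1 was at 0 reads in wild-type ESC and in both RA-DIFF libraries.

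Hey1 was at 4.83 and 4.31 CPM in ESC and at 23.96 and 42.1 CPM in RA-DIFF, and Hey2 at 0.934 and 0.767 CPM in ESC and at 7.02 and 9.88 CPM in RA-DIFF. Heyl had no read in wild-type ESC, 3 in Htt-null ESC, 1296 in the wild-type-labelled RA-DIFF library and 1424 in the one labelled Htt-null. Against the limit of 3 counts per library it was at least 334-fold higher in RA-DIFF than in ESC in wild-type-labelled cells. In Htt-null-labelled cells the log2 ratio was 8.30, with an interval of 6.75 to 10.6. Hey factors serve the pathway in vessels, heart and neural tissue. The 8 fibroblast and mesenchyme markers were higher in RA-DIFF as well, from sums of 31.5 and 16.4 CPM in ESC to those given above. Their part in the Hey levels was not tested.

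Promoters were searched for the letters of the RBPJ motif, and the 4 that carry it are printed here. Promoter sequences of RefSeq (GRCm38.p6, from 250 bases before to 50 after the start) were matched for 26 of the 33 genes, as 32 promoters. Hes1, Hes3, Hey1, Heyl, Mfng, Mib1 and Insm1 were not matched. The 7 letters GTGGGAA, on either strand, were found in 4 of the 32, those of Hes5, Hes7, Hey2 and Lfng, and in 6.38% of all 32851 promoters. A match is a run of letters and not a shown binding site. The 250 bases before each start are given 5′ to 3′ on the strand of the gene, with the motif in capitals, as GTGGGAA or, on the other strand, TTCCCAC.
Hes5, chr4:154960673-154960922, plus strand: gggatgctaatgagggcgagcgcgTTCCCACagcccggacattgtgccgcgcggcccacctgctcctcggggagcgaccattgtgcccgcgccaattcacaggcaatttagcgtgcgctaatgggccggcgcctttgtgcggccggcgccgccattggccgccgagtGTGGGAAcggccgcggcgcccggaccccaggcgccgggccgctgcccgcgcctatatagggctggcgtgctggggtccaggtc
Hes7, chr11:69120203-69120452, plus strand: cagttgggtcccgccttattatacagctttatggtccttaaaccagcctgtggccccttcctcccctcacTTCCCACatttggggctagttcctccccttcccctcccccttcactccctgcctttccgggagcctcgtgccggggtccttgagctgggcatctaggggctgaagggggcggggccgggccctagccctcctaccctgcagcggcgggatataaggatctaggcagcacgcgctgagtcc
Hey2, chr10:30842784-30843033, minus strand: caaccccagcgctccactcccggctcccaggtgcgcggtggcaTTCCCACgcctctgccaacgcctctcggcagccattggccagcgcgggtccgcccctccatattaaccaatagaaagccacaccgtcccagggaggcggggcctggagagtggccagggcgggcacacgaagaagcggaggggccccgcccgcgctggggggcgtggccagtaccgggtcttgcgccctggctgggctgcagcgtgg
Lfng, chr5:140607091-140607340, plus strand: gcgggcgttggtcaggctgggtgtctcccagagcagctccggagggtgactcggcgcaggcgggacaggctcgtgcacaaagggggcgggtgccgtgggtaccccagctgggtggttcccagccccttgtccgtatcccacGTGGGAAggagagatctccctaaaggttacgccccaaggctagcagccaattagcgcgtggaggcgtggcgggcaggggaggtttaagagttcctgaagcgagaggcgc
Hes5 carries the motif at both orientations, with first bases at -226 and -83 from the start. In Hey2 a further match runs from -4 to past the start. Of these 4 genes, Hes5, Hey2 and Lfng were higher in RA-DIFF than in ESC in both lines, whereas Hes7 was at 0.484 and 0.475 CPM in ESC and 0.178 and 0.173 CPM in RA-DIFF. The Hes-bound N box, CACNAG, was found in promoters of 14 of the matched genes, among them Dll1, Dll4, Neurog2, Neurod1, Neurod4 and Atoh1, but also in 42.5% of all promoters. The proneural E box CAGATG was found in those of Neurod2 and Numb and in 17.2% of all promoters.

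The fringes, glycosyltransferases that change which ligands a receptor answers to, were all higher in RA-DIFF in wild-type-labelled cells. Lfng, on chr5:140607320-140615545 of GRCm38, was at 3.54 and 2.93 CPM in ESC and at 51.2 and 102 CPM in RA-DIFF, a log2 ratio of 3.85 in wild-type-labelled cells and 5.12 in Htt-null-labelled cells. Mfng was at 7.50 and 9.38 CPM in ESC and at 57.2 and 34.5 CPM in RA-DIFF. Rfng was at 13.9 and 19.2 CPM in ESC and at 35.8 and 29.1 CPM in RA-DIFF, and in Htt-null-labelled cells its log2 ratio of 0.60 stayed inside the fold limit. Rfng made up most of the fringe RPKM in ESC, with 58.0% and 63.3%. Lfng and Mfng had nearly equal shares in the wild-type-labelled RA-DIFF library, 37.1% and 36.7%, while in the one labelled Htt-null Lfng had 63.0% and Mfng 18.9%.

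Of the regulators that all receptors share, Rbpj was lower in RA-DIFF. It was at 601 CPM in wild-type ESC, 497 CPM in Htt-null ESC, 148 CPM in the wild-type-labelled RA-DIFF library and 134 CPM in the one labelled Htt-null, with log2 ratios of -2.02 and -1.89. Mib1, the ubiquitin ligase that ligand-bearing cells need to signal, was at 155 and 132 CPM in ESC and at 338 and 296 CPM in RA-DIFF. Numb, an inhibitor of Notch that daughter cells can inherit unequally, and its relative Numbl lay between 35.0 and 58.5 CPM in all 4 libraries and stayed inside the fold limit in every comparison.

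The proneural factors, which commit progenitors to the neuronal fate, were nearly absent from ESC with 1 exception. Neurog2, a neurogenin of the spinal cord, hindbrain and cortex on chr3:127633135-127635631 of GRCm38, had no read in wild-type ESC and 1 in Htt-null ESC, 4282 in the wild-type-labelled RA-DIFF library and 296 in the one labelled Htt-null. Against the limit of 3 counts it was at least 1105-fold higher in RA-DIFF than in ESC in wild-type-labelled cells, and in Htt-null-labelled cells the ratio was 196-fold, with an interval of 34.9-fold to 7770-fold. Neurog1, its close relative on chr13:56250505-56252163, had 1 read in wild-type ESC, 17 in Htt-null ESC, 891 in the wild-type-labelled RA-DIFF library and 144 in the one labelled Htt-null. Neurod4, which acts after the neurogenins, had 1 read and none in ESC and 1214 and 267 reads in RA-DIFF.

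Neurod1, a differentiation factor of neurons and endocrine cells, was the exception. It was at 10.4 CPM in wild-type ESC, 12.3 CPM in Htt-null ESC, 11.4 CPM in the wild-type-labelled RA-DIFF library and 2.91 CPM in the one labelled Htt-null, and made up 91.4% and 89.0% of the proneural RPKM in ESC. An annotated exon of Cerkl on the same strand overlaps Neurod1, and Cerkl itself had 268 and 135 reads in ESC and 8 and 20 in RA-DIFF, so the assignment of Neurod1 reads in ESC is uncertain. In Htt-null-labelled cells Neurod1 was lower in RA-DIFF, with a log2 ratio of -2.08, and in wild-type-labelled cells its log2 ratio was 0.13. With the RA-DIFF labels exchanged these ratios were -1.84 against wild-type ESC and -0.11 against Htt-null ESC, so that the line in which Neurod1 was lower rests on the labels. Few reads fell on the other proneural genes. Neurod2, a factor of later neurons, had 2 reads and none in ESC and 94 and 5 in RA-DIFF. Ptf1a, a factor of inhibitory neurons and of the pancreas that overlaps an antisense gene, had 1 and none in ESC and 46 and 6 in RA-DIFF. Neurog3, the neurogenin of endocrine pancreas, had 41 and 33 in ESC and 33 and 1 in RA-DIFF, and Fam241b overlaps it on the other strand. Atoh1, a factor of dorsal hindbrain and spinal interneurons and of hair cells, had 10 and 13 in ESC and 3 and 38 in RA-DIFF. Insm1, a zinc finger repressor of newly formed neurons and endocrine cells, was at 3.49 and 2.81 CPM in ESC and at 52.3 and 23.9 CPM in RA-DIFF, with log2 ratios of 3.90 and 3.09.

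**Figure D3:**
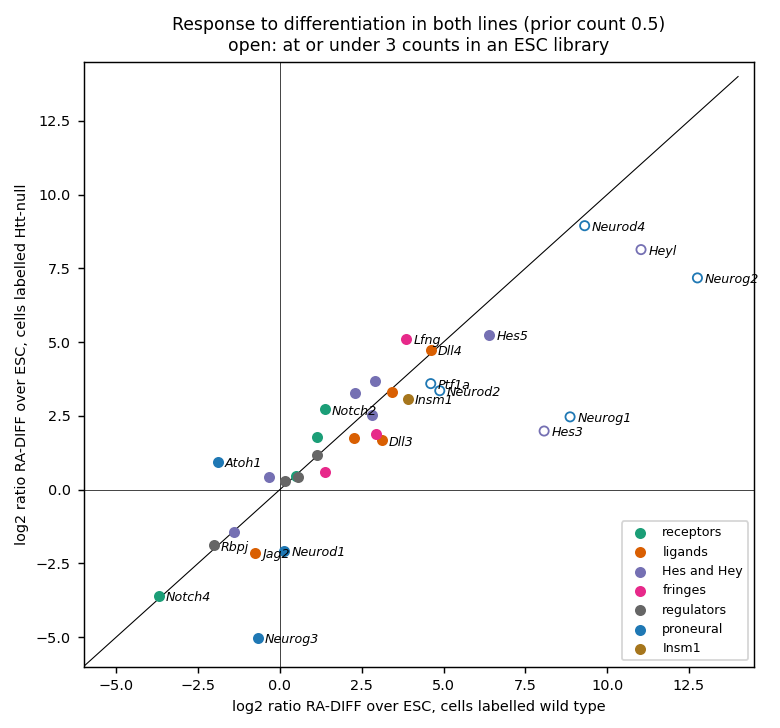
Log2 ratio of RA-DIFF over ESC in wild-type-labelled cells (horizontal) against Htt-null-labelled cells (vertical), each point 1 gene, computed with a prior count of 0.5 so that genes near 0 in ESC (open) depend on it. Rbpj, Mib1, Numb, Numbl, Notch3 and Notch4 lie near the line of equal response, Lfng and Notch2 lie above it, and Hes5, Dll3, Jag2 and Neurod1 lie below it.

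Between genotypes in ESC the pathway genes were close together. Of the 28 genes over the limit 4 were beyond the fold limit as higher in Htt-null ESC and 1 as lower, where 5.38% and 3.74% of all genes were, 9.11% in either direction, and the median log2 ratio was -0.08 against -0.04 over all genes. These calls cannot be read against the shares of all genes, because all 5 genes met the expression limit through RA-DIFF. All 5 had at most 21 reads in either ESC library. They were Hes3, with 21 reads in Htt-null and 1 in wild-type ESC, Neurog1, with 17 and 1, and Heyl, Neurog2 and Neurod4, with at most 3 reads in either library, for which no fold is given. The Hes3 ratio was 27.9-fold, with an interval of 4.49-fold to 1155-fold, and the Neurog1 ratio 22.6-fold, with an interval of 3.54-fold to 945-fold. In CPM these are 0.322 against 0.0115 and 0.261 against 0.0115. With a requirement of at least 100 reads in the higher library none of the 33 genes was beyond the fold limit in ESC. Among well-read genes the widest ratios were those of Notch4, at -0.65 (-0.74 to -0.57), Dll1, at -0.54 (-0.69 to -0.38), Rfng, at 0.46 (0.35 to 0.58), and Dll3, at 0.45 (0.20 to 0.69). Rbpj, read deepest of all, had a log2 ratio of -0.27 (-0.29 to -0.25).

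Between the RA-DIFF libraries the proneural genes stood apart from the receptors. Of the 28 genes over the limit 9 were lower in the Htt-null-labelled library and 3 were higher, where 9.23% of all genes were lower and 11.9% higher, 21.1% in either direction, and the median log2 ratio over the 33 genes was -0.31 against -0.01 over all genes. The genes that were lower are the proneural factors Neurog1, Neurog2, Neurod1 and Neurod4, the zinc finger factor Insm1, the neural repressors Hes3 and Hes5 and the ligands Dll3 and Jag2. Those that were higher are Notch2, Hey1 and Lfng. The exact test of edgeR compares 1 library with 1 library at a dispersion that is assumed and not measured. At 0.1, the value in the study's methods, the 6 genes Hes3, Hes5, Neurog1, Neurog2, Neurod1 and Neurod4 passed it as lower and none as higher, and at a dispersion of 0.01 the counts were 9 and 3.

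Of the 8 proneural genes, 7 had ratios below 0 and 1 above. Neurog1, Neurog2 and Neurod4, and the repressor Hes3, met the expression limit mainly through the wild-type-labelled RA-DIFF library, where they were highest. Their being counted as lower in the other library is therefore in part set by that limit. Neurog2 was at 38.2 CPM (37.1 to 39.4) in the wild-type-labelled library and at 3.01 CPM (2.67 to 3.37) in the one labelled Htt-null, 12.7-fold lower, with a log2 ratio of -3.67 (-3.84 to -3.50). Neurog1 was at 7.95 and 1.46 CPM, a log2 ratio of -2.44 (-2.71 to -2.19). Neurod4, with 10.8 and 2.71 CPM, had a log2 ratio of -1.998 (-2.20 to -1.81), and Neurod1 one of -1.97 (-2.16 to -1.78). The fold between the libraries was thus largest for Neurog2 among these 4 proneural genes. Summed over the 8 proneural genes the level was 70.0 CPM in the wild-type-labelled library and 10.6 CPM in the one labelled Htt-null, where the sums for the 8 neuron markers were 2707 and 1216 CPM and those for the 6 neural progenitor markers 2729 and 2720 CPM. Of the 6 progenitor markers 4 had ratios below 0, 2 of them beyond the fold limit, with a median log2 ratio of -0.33. Pluripotency markers were lower in the Htt-null-labelled library too, 6 of 7 beyond the fold limit, with sums of 54.2 CPM in the wild-type-labelled library and 13.2 CPM in the other, and their part in the proneural ratios was not tested. Below the expression limit, Neurod2 with 94 against 5 reads, Ptf1a with 46 against 6 and Neurog3 with 33 against 1 had the same direction. Atoh1 had the opposite one, with 3 reads in the wild-type-labelled library and 38 in the one labelled Htt-null, a ratio of 14.4-fold with an interval of 4.57-fold to 73.0-fold.

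Of the 5 ligands 2 were lower in the Htt-null-labelled library. Dll3 had a log2 ratio of -0.998 (-1.09 to -0.91) and Jag2 one of -0.99 (-1.11 to -0.88). Dll1, the ligand next to the neurogenins in the pathway, was at -0.66 (-0.70 to -0.63), just inside the fold limit, and Jag1 at -0.34. Dll4, with 2.94 and 3.01 CPM, had a log2 ratio of 0.03 (-0.20 to 0.26).

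Repressors went in both directions. Hes5 was at 18.0 CPM in the wild-type-labelled library and at 6.03 CPM in the one labelled Htt-null, a log2 ratio of -1.58 (-1.71 to -1.44), and Hes3, at 4.59 and 1.29 CPM, had one of -1.83 (-2.12 to -1.55). Hes1 had the opposite direction at 0.63 (0.57 to 0.69), inside the fold limit. Hey1 was higher in the Htt-null-labelled library by 0.81 (0.74 to 0.89), Hey2 had a log2 ratio of 0.49 (0.36 to 0.63) and Heyl one of 0.32 (0.21 to 0.43). Per exon length, Hes5 made up 10.8% of the summed Hes and Hey RPKM in the wild-type-labelled library and 3.78% in the one labelled Htt-null, and Hes1 14.3% and 23.0%. The summed RPKM of the family, 122 and 117, differed little between the libraries.

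Receptors and fringes differed by member. Notch2 had a log2 ratio of 1.28 (1.25 to 1.31) and Notch1 one of 0.46 (0.43 to 0.49), both higher in the Htt-null-labelled library, Notch1 inside the fold limit. Notch3 was at -0.15 and Notch4 at -0.56 (-0.82 to -0.30). Lfng was higher by 0.99 (0.95 to 1.04), whereas Mfng, at -0.73 (-0.79 to -0.67), lay just inside the fold limit in the other direction and Rfng was at -0.30. Rbpj, Numb, Numbl and Mib1 lay between -0.31 and 0.06. The markers of endothelium, where Notch4, Dll4 and Hey genes are also used, summed to 28.7 CPM in the wild-type-labelled library and 93.9 CPM in the one labelled Htt-null. Of these markers 6 of 8 were higher in the latter, and the highest single marker alone was at 17.9 and 71.7 CPM. The part of these markers in the ratios was not tested.

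**Figure D4:**
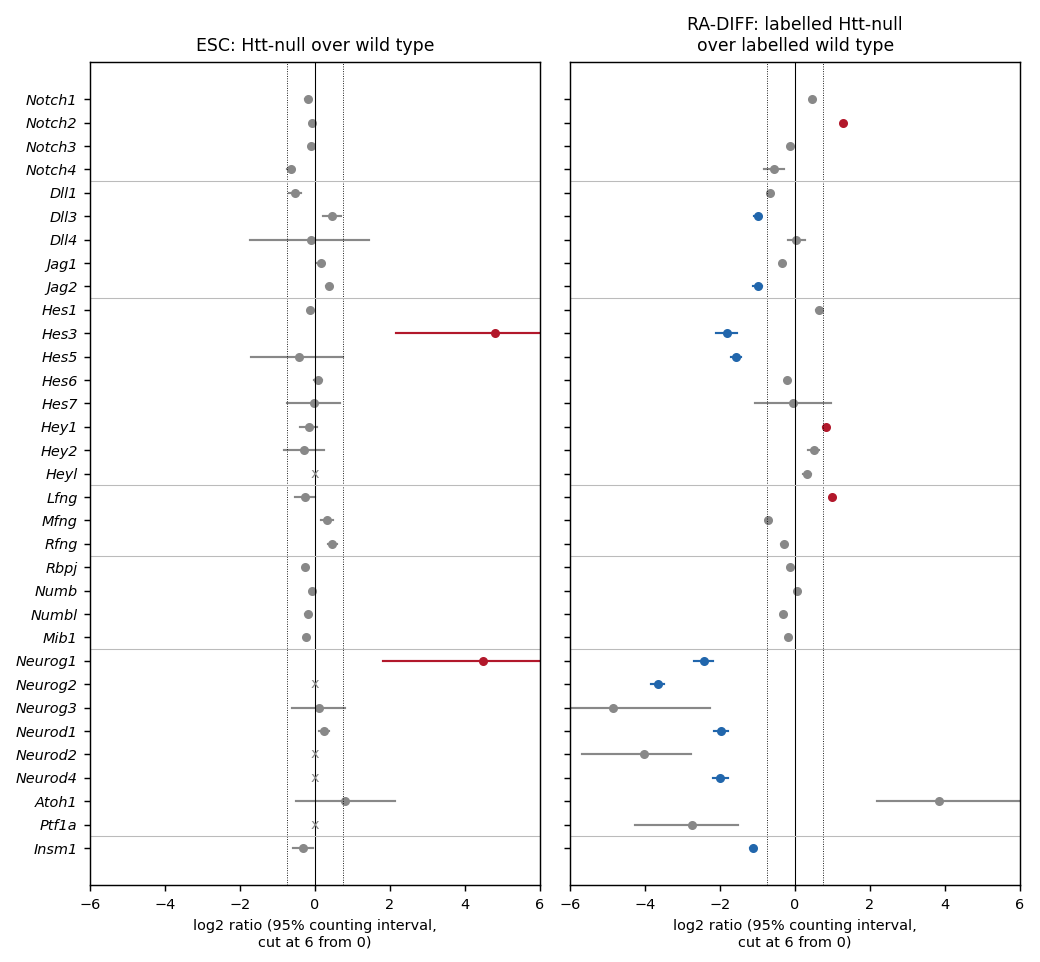
Log2 ratios between genotypes, Htt-null against wild-type, in ESC (left) and between the RA-DIFF libraries as labelled, in the same direction (right) for the 33 genes, with 95% counting intervals cut at 6 from 0. Dotted lines mark the fold limit of 0.75, red and blue the genes counted as higher and lower, grey all others, and x the genes at or under 3 reads in both libraries. In ESC the well-read genes sit between the dotted lines, and in RA-DIFF Neurog1, Neurog2, Neurod1 and Neurod4 lie to the left.

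The other genes of the pathway were taken from a list of 38, with the proteases, Mastermind and Groucho coactivators and corepressors, ubiquitin ligases and feedback genes, and from a list of 21 further bHLH genes. Of the 38, 3 had a higher and 2 a lower level in the Htt-null-labelled RA-DIFF library, with a median log2 ratio of 0.08. These are smaller shares than the 11.9% and 9.23% over all genes. Among the higher ones, named after their values were seen, were Furin (1.15), the protease of the first receptor cleavage, and Neurl1b (1.03), a ligand-directed ubiquitin ligase. The lower ones, named in the same way, were Nrarp (-1.04), a Notch target that feeds back on the pathway, and Dlk2 (-0.81). Of the 21 bHLH genes 17 were over the expression limit, and 4 of these were higher and 3 lower. Among those beyond the fold limit and read 100 times or more in 1 library, the highest ratios were those of Ferd3l (3.26), Olig1 (2.56) and Olig2 (1.58), the latter factors of motor neuron and oligodendrocyte progenitors, and the lowest those of Helt (-3.13), a midbrain factor, and of Nhlh1 (-2.83) and Nhlh2 (-2.65), which are expressed in newly formed neurons. Nhlh2 had 7377 reads in the wild-type-labelled library and 1034 in the one labelled Htt-null, and Olig1 2303 and 11899. Olig3, under the expression limit and named after its values were seen, had 224 and 30 reads. In ESC, Dlk1 (1.15) and Id4 (-0.88) were the genes of both lists with at least 100 reads that were beyond the fold limit.

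Small RNA of the same 4 conditions was sequenced too, and 3 miRNAs with known links to these genes were followed: miR-9-5p, which targets Hes1, miR-34a-5p, which targets Notch1, Dll1 and Jag1, and miR-124-3p of neurons. The mature sequences of 2 of them, from RefSeq (GRCm38.p6) and with the seed of bases 2 to 8 in capitals, are shown because the seed is what pairs with a target.
miR-9-5p: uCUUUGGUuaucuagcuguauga
miR-34a-5p: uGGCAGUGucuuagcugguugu
miR-9-5p is encoded at 3 places, on chromosomes 3, 7 and 13, which its reads cannot tell apart, and miR-34a-5p on chr4:150068473-150068494. In CPM without further scaling, miR-9-5p was at 695 in wild-type ESC, 797 in Htt-null ESC, 7848 in the wild-type-labelled RA-DIFF library and 12286 in the one labelled Htt-null, and miR-34a-5p at 677, 908, 53.1 and 31.1. miR-9-5p was higher and miR-34a-5p lower in RA-DIFF in each line under both scalings, with TMM log2 ratios of 4.66 and 5.82 for miR-9-5p and of -2.51 and -2.99 for miR-34a-5p. With library size alone these were 3.50 and 3.95 for miR-9-5p and -3.67 and -4.87 for miR-34a-5p. Between the RA-DIFF libraries miR-9-5p had a log2 ratio of 1.13 with TMM and 0.65 with library size alone, and miR-34a-5p one of -0.29 and -0.77. That of miR-124-3p turned from 0.17 with TMM to -0.31 with library size alone. For miR-124-3p, whose CPM were 122, 157, 94.2 and 75.9 on the same scale and in the same order, the direction of the response depended on the scaling: the log2 ratios of RA-DIFF over ESC were 0.79 and 0.83 with TMM and -0.38 and -1.05 with library size alone. Whether the RA-DIFF labels of the small RNA libraries need the same caution as those of the RNA-seq was not tested.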

How the data were processed

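Mouse RNA was measured in 8 samples, 4 by RNA-seq and 4 by small RNA-seq, grouped by the labels, with 1 library per condition. The authors deposited raw counts: paired reads had been placed on GRCm38 by TopHat2 2.0.14 and counted on genes with HTSeq 0.6.1, and small RNA reads were trimmed with cutadapt 1.3 and mapped to mature miRNAs with BWA. RNA-seq libraries kept strand (dUTP), and the methods give default settings apart from the HTSeq mode without naming a strand option. How reads were assigned by strand was not checked, so genes overlapping on opposite strands are treated as uncertain. No further columns were left unused (0). TMM factors were computed with edgeR 4.0.16 (R 4.3.3) over the 4 libraries of an assay. Log2 ratios used for calls and for medians had a prior count of 0.5, which sets the ratio of genes near 0 reads. Printed TMM ratios of single genes had none, and ratios against 0 reads used the floor of 3 counts. Exon lengths for RPKM were merged exons of GENCODE vM21 (GRCm38). The planned design was kept, with no p-value, because no dispersion can be estimated; a call is a log2 ratio beyond 0.75 at a mean log2 CPM above 0. The calling code was run on simulated counts at a dispersion of 0.01, with changes beyond the fold limit in well-read genes only. That run checked the code and did not test the calls given here. All 33 members were named, with the other pathway genes with the largest ratios. The members and lists were chosen with earlier results of these data known. Alternatives were library size, DESeq2 1.42.0 size factors, a prior count of 2, other limits, the exact test of edgeR (unadjusted limit 0.05) at assumed dispersions of 0.1 and 0.01, and exchanged RA-DIFF labels. Protein sequences were not used here, and 1 gene of the pathway list is not reported here. Tables and figures were made with Python 3.11.15.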

Additional observations from a re-analysis of the deposited data

Results flagged for a closer look

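For 2 genes with more than 3 reads in a library at each stage, the ratio of Htt-null over wild-type went in opposite directions, beyond the fold limit, in ESC and in RA-DIFF as labelled. Hes3 was higher in Htt-null ESC, with 21 reads against 1, and had a log2 ratio of -1.83 between the RA-DIFF libraries. Neurog1 was higher in Htt-null ESC, with 17 reads against 1, and had a log2 ratio of -2.44 between the RA-DIFF libraries. Neurog2, with a log2 ratio of -3.67 between the RA-DIFF libraries, was beyond the fold limit as higher in Htt-null ESC on 1 read against 0, too few for a fold. Hes3, Neurog1 and Neurog2 met the expression limit through RA-DIFF, and their calls in ESC rest on few reads. The difference between the stages was not tested, and with the RA-DIFF labels exchanged these genes have the same direction at both stages.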

How the results depend on the processing

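No paired analysis was possible because each condition has 1 library and the labels give no replicate numbers. Counts that stayed within 1.5 times of those reported are not listed, and leaving out a library leaves no comparison. In ESC the 4 higher genes became 2 with the exact test at either dispersion and 0 when the higher library needed 100 reads or more, and the 1 lower gene became 0 with these settings and with a prior count of 2, and 3 with no expression limit. Between the RA-DIFF libraries the 3 higher genes became 1 at a log2 limit of 1 and 0 at a dispersion of 0.1. In the response to RA, the 3 lower genes in cells labelled wild-type became 5 with no expression limit. The median response became 2.56 over genes above the limit and 1.96 with RA-DIFF labels exchanged in cells labelled wild-type, and 2.47 with labels exchanged in cells labelled Htt-null. Of the 59 other pathway and bHLH genes, the 3 higher in ESC became 1 with at least 100 reads and 0 at a dispersion of 0.1. The 3 lower in ESC became 1 with a prior count of 2, with at least 100 reads, at a log2 limit of 1 and at a dispersion of 0.01, and 0 at a dispersion of 0.1. Between the RA-DIFF libraries the 7 higher and the 5 lower each became 3 at a dispersion of 0.1. In the response of Htt-null-labelled cells the 5 lower became 2 at that dispersion. miR-124-3p reversed with library size alone, to -0.38 in cells labelled wild-type and -1.05 in cells labelled Htt-null, and between the RA-DIFF libraries from 0.17 to -0.31. The cause of these changes beyond the stricter or looser limit was not tested. Depth limits Dll4, Hes3, Hes5, Hes7, Heyl and the proneural genes other than Neurod1 in ESC, where few reads set a ratio.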
